A study of Homo sapiens with 6 samples.

Results

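The baseline expression profile of untransfected MDA-MB-436 cells was read from the 3 arrays labelled as wild type, out of 6 arrays in the series. MDA-MB-436 is an established human breast tumour line of the triple-negative class, and the labels give its cells as epithelial and their condition as wildtype. The cells carried no plasmid, grew in RPMI-1640 medium with FCS, PEST and insulin, and gave total RNA by Trizol extraction that was labelled with biotin. The other 3 arrays of the series, from stably transfected cells, were not used here. A single line grown with added insulin and serum stands for the class, and the labels name no second untransfected line. The labels do not state whether the 3 replicates were separate cultures, and the spread between them may therefore be technical.

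Triple-negative breast tumours are defined by the lack of oestrogen receptor, progesterone receptor and amplified HER2, the product of ERBB2. Mammary epithelium holds luminal cells, which carry keratins 8, 18 and 19 and line the duct, and basal or myoepithelial cells, which carry keratins 5 and 14 and rest on the basement membrane. Cells that have moved towards a mesenchymal state lose the adhesion protein E-cadherin and carry vimentin, and such lines form a group of their own among triple-negative cultures.

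Each gene was read by its brightest probe set, and the deposited log2 values are signals of probe sets. Probe sets differ in brightness, so the rank of a gene is a rank of signal and not of transcript number. The 123 background genes were genes of olfactory and taste receptors, late cornified envelope proteins, beta-defensins and lens gamma-crystallins, which a breast culture should not use. Their 95th percentile, 5.09, 5.10 and 5.12 on replicates 1, 2 and 3, served as a ceiling. A gene was called above background when it passed the ceiling on all 3 arrays, mixed when it passed on some, and not above background when it passed on none. A stricter limit, chosen after the data were seen, was the highest background gene of each array, at 6.84, 6.70 and 6.93, and a gene over it on all 3 arrays is called well above background.

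Of 19740 genes, 11605 (58.8%) were above background, 828 were mixed and 7307 (37.0%) were not above background. The stricter limit left 7803 genes (39.5%) well above background. A gene at percentile 39.1 of the ranking stood at the ceiling. The arrays were alike, with correlations across genes of 0.996 for each pair, and the median SD over the 3 arrays was 0.104. Genes with several probe sets were above background in 73.8% of cases and genes with 1 probe set in 41.7%, and 97 of the 123 background genes had 1 probe set. The number of arrays limits the precision of every value, and no test between groups was made.

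**Figure D1:**
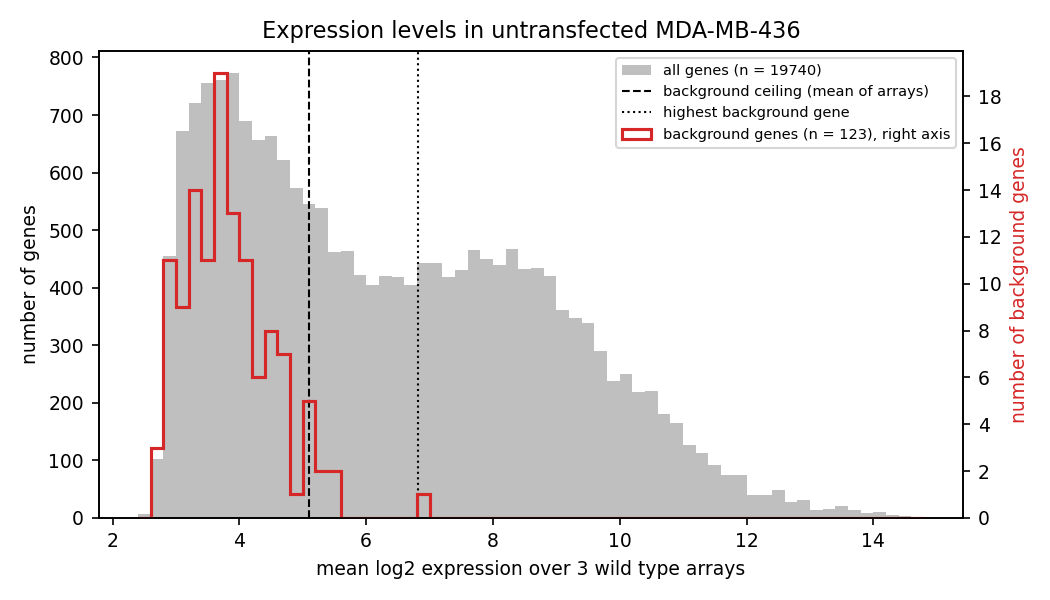
Mean log2 level of every gene over the 3 wild type arrays, drawn with the background genes, the ceiling and the highest background gene. The ceiling near 5.10 cuts off most background genes, and 4 of the 123 passed it on all 3 arrays.

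Most of the 25 genes of highest signal encoded ribosomal proteins or lay in the mitochondrial genome. The mitochondrial gene COX1, a subunit of cytochrome c oxidase, ranked first at 14.54, 14.62 and 14.58. EEF1A1, the elongation factor that brings aminoacyl-tRNA to the ribosome, followed at 14.46, 14.42 and 14.47. Among the 25 highest genes, 14 encoded ribosomal proteins and 4 lay in the mitochondrial genome (COX1, COX2, ND4 and ATP6). The other 7 were EEF1A1, the glycolytic enzyme GAPDH, the actin ACTB, the mitochondrial chaperone HSPD1, the ferritin light chain FTL, the prolyl isomerase PPIA and the tumour protein TPT1. Their levels ran down to 13.89, and the 100 highest genes held 43 ribosomal protein genes. Of the 25, 15 stayed among the 25 highest under the mean of the probe sets, and 5 when probe sets ending in _x_at or _s_at were left out. All 14 measured housekeeping genes were well above background, at a median of 13.29. Some neighbours in this order, such as RPL37A at 14.32 ± 0.02 (SD, n = 3) and RPL32 at 14.32 ± 0.04 (SD, n = 3), did not differ beyond their spread.

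Of the 3 receptor genes that define the triple-negative class, PGR was not above background, ESR1 lay between the ceiling and the highest background gene, and ERBB2 was well above background. PGR, the progesterone receptor, read 3.16, 2.92 and 3.29 and was not above background on any array. ESR1, the oestrogen receptor alpha gene, read 6.08, 5.79 and 5.78, which is over the ceiling on each array but under the highest background gene. Only 3 of its 9 probe sets were above background, and averaging all 9, or leaving out probe sets whose names end in _x_at or _s_at and which may match several transcripts, ended the call. ERBB2 read 7.50, 7.42 and 7.48, over the highest background gene on each array and at percentile 65.8, with 1 of its 3 probe sets above background. The names of all 3 end in _x_at or _s_at. ESR2, the second oestrogen receptor, was not above background, with a mean of 4.69 ± 0.12 (SD, n = 3).

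Other nuclear receptors had clear signal. NR3C1, the glucocorticoid receptor, read 10.12, 10.06 and 10.24, and RXRA, the shared partner of many nuclear receptors, read 10.06, 9.89 and 10.30. Both stood above percentile 90 of all genes on the mean, at 91.8 and 91.4. ESRRA, an orphan receptor of energy metabolism, averaged 9.27, PPARG, the receptor of fat cell formation, 9.13, the dioxin receptor AHR 8.29 and the vitamin D receptor VDR 7.41. Of 24 steroid and related receptors, 3 were not analysed here. Of the 21 measured, 15 (71.4%) were above background and 8 (38.1%) well above, beside 58.8% and 39.5% of all genes. The mineralocorticoid receptor NR3C2 (4.06), the thyroid hormone receptor THRB (4.63), ESRRG (3.48) and NR2F1 (4.40) were not above background. The list's median percentile was 51.7, close to the middle of all genes.

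Growth factor receptors of the tyrosine kinase class were split. EGFR, the epidermal growth factor receptor, read 10.34, 10.42 and 10.49. MET, the receptor of hepatocyte growth factor, read 10.45, 10.52 and 10.49. Both genes lay far over the highest background gene on all 3 arrays. RYK, a receptor for Wnt proteins, averaged 10.01, the ephrin receptor EPHA2 8.77 and the insulin-like growth factor receptor IGF1R 8.82. IGF2R, which clears IGF2 and carries no kinase, was placed in this list and averaged 10.05. Of 33 measured members, 23 (69.7%) were above background and 13 (39.4%) well above, beside 58.8% and 39.5% of all genes. The members not above background included ERBB4 (3.61), the neurotrophin receptor NTRK2 (3.80), FLT3 (3.99), the macrophage receptor CSF1R (3.81), ALK (4.07) and ROS1 (3.63).

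**Figure D2:**
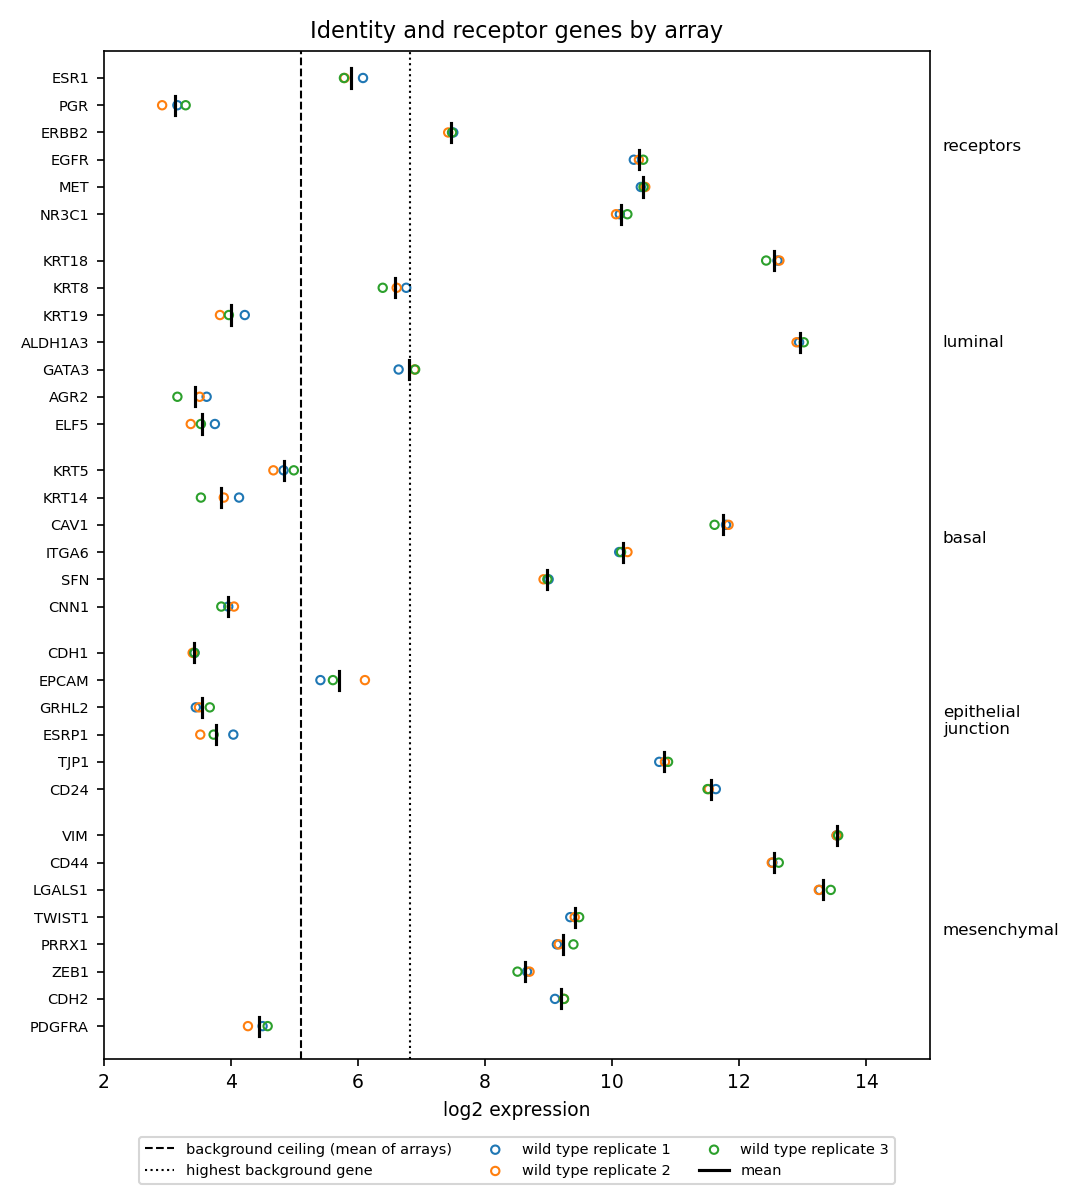
Log2 levels of receptor, keratin, adhesion and mesenchymal genes on each of the 3 wild type arrays, with the background ceiling and the highest background gene as lines. Vimentin and keratin 18 lie far over both lines, while E-cadherin, PGR, KRT5 and KRT14 lie under the ceiling on all 3 arrays.

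Keratin genes did not follow a single mammary lineage. KRT18, a luminal type I keratin, read 12.60, 12.63 and 12.42, at percentile 99.2. KRT8, its usual type II partner, read 6.76, 6.61 and 6.39, over the ceiling but under the highest background gene. Each of these genes was read by 1 probe set, and the brightness of different probe sets cannot be compared. The probe sets of KRT18 and KRT8 both end in _x_at and may match several transcripts. KRT7, another simple-epithelial keratin, averaged 7.98 ± 0.02 (SD, n = 3), whereas the luminal KRT19 was not above background at 4.01 ± 0.20 (SD, n = 3).

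The basal keratins were low on all 3 arrays. KRT5 read 4.83, 4.67 and 4.99, and KRT14 read 4.13, 3.89 and 3.53, both under the ceiling. CDH3, the basal P-cadherin, averaged 3.80, the nerve growth factor receptor NGFR 3.46, the desmosomal cadherin DSG3 3.78, the contractile protein CNN1 3.95 and the chaperone CRYAB 4.25. None of these 5 was above background. Other genes of the basal list were high, with the caveolae genes CAV1 at 11.74 and CAV2 at 10.90, the laminin receptor subunits ITGA6 at 10.16 and ITGB4 at 8.69, the oxytocin receptor OXTR at 9.81 and the 14-3-3 protein SFN at 8.97. In all, 13 of 24 measured basal genes (54.2%) were above background and 7 (29.2%) well above, beside 58.8% and 39.5% of all genes.

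Of 30 measured luminal genes, 20 (66.7%) were above background and 7 (23.3%) well above, beside 58.8% and 39.5% of all genes. Under the mean of the probe sets, 13 of the 30 (43.3%) were above background, beside 52.5% of all genes. ALDH1A3, an aldehyde dehydrogenase that makes retinoic acid and is used as a mark of mammary progenitors, read 12.94, 12.90 and 13.01. It stood at percentile 99.5 and was read by 1 of its 2 probe sets. SLC39A6, a zinc transporter, averaged 10.13, the carbonic anhydrase CA12 8.91 and the unfolded-protein factor XBP1 8.80. The milk genes CSN2 (3.39), LALBA (4.07) and LTF (4.12), the alveolar factor ELF5 (3.55) and the secretory protein AGR2 (3.43) were not above background.

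The start-site windows of the lineage genes VIM, ALDH1A3 and KRT5 and of the elongation factor gene EEF1A1 are shown because they cover levels from the top of the ranking to below background. Each holds 120 bases before and 30 bases from the RefSeq start, in GRCh38.p14, 5′ to 3′ on the gene's strand, and capitals mark a TATAAA, GGNNTTTCC or CCGGAA match, of which these 4 windows have none. The windows are chr6:73521003-73521152 (minus strand) for EEF1A1, chr10:17228121-17228270 (plus) for VIM, chr15:100879711-100879860 (plus) for ALDH1A3 and chr12:52520365-52520514 (minus) for KRT5.
EEF1A1: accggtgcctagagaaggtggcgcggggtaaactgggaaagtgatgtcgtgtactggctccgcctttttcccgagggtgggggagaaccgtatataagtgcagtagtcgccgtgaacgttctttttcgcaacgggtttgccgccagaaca
VIM: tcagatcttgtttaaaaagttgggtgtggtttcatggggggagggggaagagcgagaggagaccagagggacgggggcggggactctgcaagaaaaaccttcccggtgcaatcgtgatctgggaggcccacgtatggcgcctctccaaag
ALDH1A3: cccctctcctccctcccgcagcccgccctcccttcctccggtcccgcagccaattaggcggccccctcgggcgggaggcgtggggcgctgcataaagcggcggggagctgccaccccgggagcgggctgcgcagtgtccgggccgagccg
KRT5: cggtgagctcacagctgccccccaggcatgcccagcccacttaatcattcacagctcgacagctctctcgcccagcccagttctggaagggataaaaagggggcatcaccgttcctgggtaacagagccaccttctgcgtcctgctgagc
Over 300 bases around the start, the ratio of observed to expected CpG was 0.923 for ALDH1A3, 0.891 for EEF1A1, 0.584 for VIM and 0.301 for KRT5.

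Epithelial adhesion genes were divided, and E-cadherin was among the low ones. CDH1, which encodes E-cadherin, read 3.43, 3.40 and 3.43, with 0 of its 2 probe sets above background. EPCAM, an epithelial surface protein, read 5.41, 6.11 and 5.61, over the ceiling but under the highest background gene, and lost its call at the 99th percentile of the background genes. The epithelial label thus stood beside a KRT18 signal at percentile 99.2 and an E-cadherin gene that was not above background. GRHL2 (3.54) and ESRP1 (3.76), a transcription factor and a splicing factor of epithelial cells, were not above background. The same held for the vesicle genes RAB25 (4.05) and MAL2 (3.96) and the surface protease PRSS8 (3.78).

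Other members of the same list were well above background. TJP1, the tight-junction scaffold ZO-1, averaged 10.82, and the desmosomal cadherin DSG2 averaged 10.05. DSP, the desmosome's link to keratin, averaged 7.93, CLDN1, a claudin, 7.60 and PKP3, a plakophilin, 7.57. CD24, a surface glycoprotein counted with epithelial identity, read 11.63, 11.52 and 11.50, and all 6 of its probe sets were above background. All 6 end in _x_at or _s_at and may match several transcripts, so CD24 had no value without such probe sets. Of the 36 measured genes of this list, 19 (52.8%) were above background, near the 58.8% of all genes, with 6 (16.7%) well above, 2 mixed and 15 not above. Its median percentile of 44.4 was under that of the median gene.

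Mesenchymal genes stood high in the ranking. VIM, the intermediate filament vimentin, read 13.53, 13.53 and 13.55, at percentile 99.7. LGALS1, a galectin of mesenchymal cells, averaged 13.32 ± 0.11 (SD, n = 3), and CD44, the hyaluronan receptor, read 12.52, 12.51 and 12.62. FSTL1, a secreted relative of follistatin, averaged 11.95, the membrane-cytoskeleton linker MSN 11.42 and the surface nucleotidase NT5E, known as CD73, 10.29. In this list, 30 of 33 measured members (90.9%) passed the ceiling, and 23 (69.7%) were well above background, beside 58.8% and 39.5% of all genes. The platelet-derived growth factor receptors PDGFRA (4.45) and PDGFRB (4.65) were the only 2 not above background on every array. CD44 and CD24 were thus both well above background in these cultures, CD24 only by probe sets that may match several transcripts. VIM also had only probe sets ending in _x_at or _s_at.

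Basement membrane and interstitial matrix genes differed within their families. LAMC1, the shared gamma chain of laminins, averaged 10.05 ± 0.08 (SD, n = 3), the laminin alpha chain LAMA5 9.25 and the nidogen NID2 9.82. COL6A1 averaged 9.60, COL5A1 9.28 and COL16A1 9.21. By contrast, 5 of the 28 collagen and laminin genes were not above background. These were the fibrillar collagens COL1A2 (4.58), COL3A1 (3.91) and COL11A1 (3.31), with COL8A1 (3.30) and COL6A3 (3.91), a partner chain of COL6A1. The list had 23 members (82.1%) above background and 16 (57.1%) well above, beside 58.8% and 39.5% of all genes.

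Matrix glycoproteins showed the same mixture. FN1, fibronectin, read 10.10, 10.12 and 10.42, with 5 of its 7 probe sets above background. Enzymes that modify collagen were high, with the lysyl hydroxylase PLOD3 at 10.50, the lysyl oxidase relative LOXL2 at 10.32 and the prolyl hydroxylase P4HA1 at 9.61. FBLN2, a fibulin, averaged 9.60 and CCN1, a matricellular protein, 9.57. SPARC, a collagen-binding protein of matrix-rich tumours, read 3.14, 3.27 and 3.37 and was under the ceiling on all 3 arrays. The stromal genes LUM (3.16), POSTN (3.10), THBS2 (3.78), DCN (4.81) and MFAP5 (4.09) were also not above background. Of 36 measured, 28 (77.8%) passed the ceiling and 19 (52.8%) were well above background, beside 58.8% and 39.5% of all genes.

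Protease inhibitors and lysosomal cathepsins led the protease list. TIMP1, the tissue inhibitor of metalloproteinases, read 12.79, 12.79 and 12.88, and SERPINE2, an inhibitor of thrombin and plasmin-class enzymes, read 12.11, 11.96 and 12.46. CTSB and CTSL, cysteine proteases of the lysosome, averaged 11.89 and 11.66, the sheddase ADAM9 10.78 and TIMP2 10.77. The secreted metalloproteinases MMP3 (3.92), MMP10 (3.56), MMP12 (3.16) and MMP13 (3.94), and ADAMTS1 (4.40) and ADAMTS5 (3.63), were not above background. The list counted 24 of 33 (72.7%) above background and 15 (45.5%) well above, beside 58.8% and 39.5% of all genes.

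Receptors for this matrix were read as follows. ITGB1, the common beta chain of collagen, laminin and fibronectin receptors, read 12.47, 12.50 and 12.55, and ITGAV, the alpha chain of vitronectin receptors, read 11.41, 11.53 and 11.65. CD47, a thrombospondin receptor, averaged 11.94, the hyaluronan receptor HMMR 10.37, the collagen receptor kinase DDR2 9.19 and the proteoglycan SDC1 9.16. The leukocyte integrin ITGB2 (4.56), the alpha chains ITGA1 (3.71), ITGA4 (4.75) and ITGA9 (4.47), and the scavenger receptor CD36 (3.90) were not above background. Of 26 measured, 19 (73.1%) were above background and 13 (50%) well above, beside 58.8% and 39.5% of all genes.

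Among secreted growth factors, EREG, an EGFR ligand, had the highest level and read 10.74, 10.90 and 10.83. EGF itself (3.40) and BTC (3.23), which bind the same receptor, were not above background on any array. VEGFA, the vascular growth factor, averaged 9.36, the activin chain INHBA 9.33, PDGFC 9.27, PDGFA 8.51 and TGFB1 8.14. FGF5 (4.28), FGF7 (3.16) and ANGPT1 (3.79) were not above background. A further probe set that names FGF7 together with other genes was above the ceiling, at 5.78. In this list 23 of 29 members (79.3%) passed the ceiling and 12 (41.4%) were well above, beside 58.8% and 39.5% of all genes.

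Interleukins formed a list of extremes. IL1A read 11.56, 11.60 and 11.51, and IL1B read 11.65, 11.66 and 11.87, both inflammatory cytokines of the interleukin-1 family. IL6 read 10.35, 10.30 and 10.46, at percentile 93.1. The value of IL1A rested on 1 of its 2 probe sets, and the other one averaged 3.58. MIF, a broadly used cytokine, averaged 12.42, the inflammatory cytokine IL32 11.03 and the macrophage growth factor CSF1 8.49. Of 38 measured members, 17 (44.7%) were above background and 8 (21.1%) well above, beside 58.8% and 39.5% of all genes. A further 3 were mixed and 18 not above. The lymphoid and epithelial cytokines IL10 (3.01), IL17A (3.20), IL33 (2.99) and TSLP (2.94) were not above background. With a median percentile of 39.8 the list stood at the ceiling, although 5 of its members were at or over percentile 90 of all genes.

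Chemokines were low as a list, and the few high ones were mostly ligands of the neutrophil receptors. CXCL8, which is interleukin-8, read 11.79, 11.81 and 12.08. CXCL2 read 10.45, 10.44 and 10.88, and CXCL1 read 8.28, 8.25 and 9.09. In each case replicate 3 was the highest array. CXCL3 averaged 8.76 ± 0.21 (SD, n = 3), CXCL6 7.62 ± 0.36 (SD, n = 3), and CCL20, a ligand of CCR6, 8.50 ± 0.19 (SD, n = 3). These 6 genes were the only chemokines of 33 measured that were well above background, and all 6 were highest on replicate 3, compared with 35.4% of all genes well above background. CXCL2 was read by 1 of 3 probe sets, and it lost its call when probe sets ending in _x_at or _s_at were left out. CXCL5 (3.25) and PPBP (3.12), which bind the same neutrophil receptor, were not above background, nor were CXCL11 (2.99), CXCL13 (2.94), CCL8 (3.02) and CCL27 (3.62). In all, 11 chemokines (33.3%) passed the ceiling, beside 58.8% of all genes, while 2 were mixed and 20 did not pass. The 6 well above background were 18.2% of those measured, beside 39.5% of all genes.

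**Figure D3:**
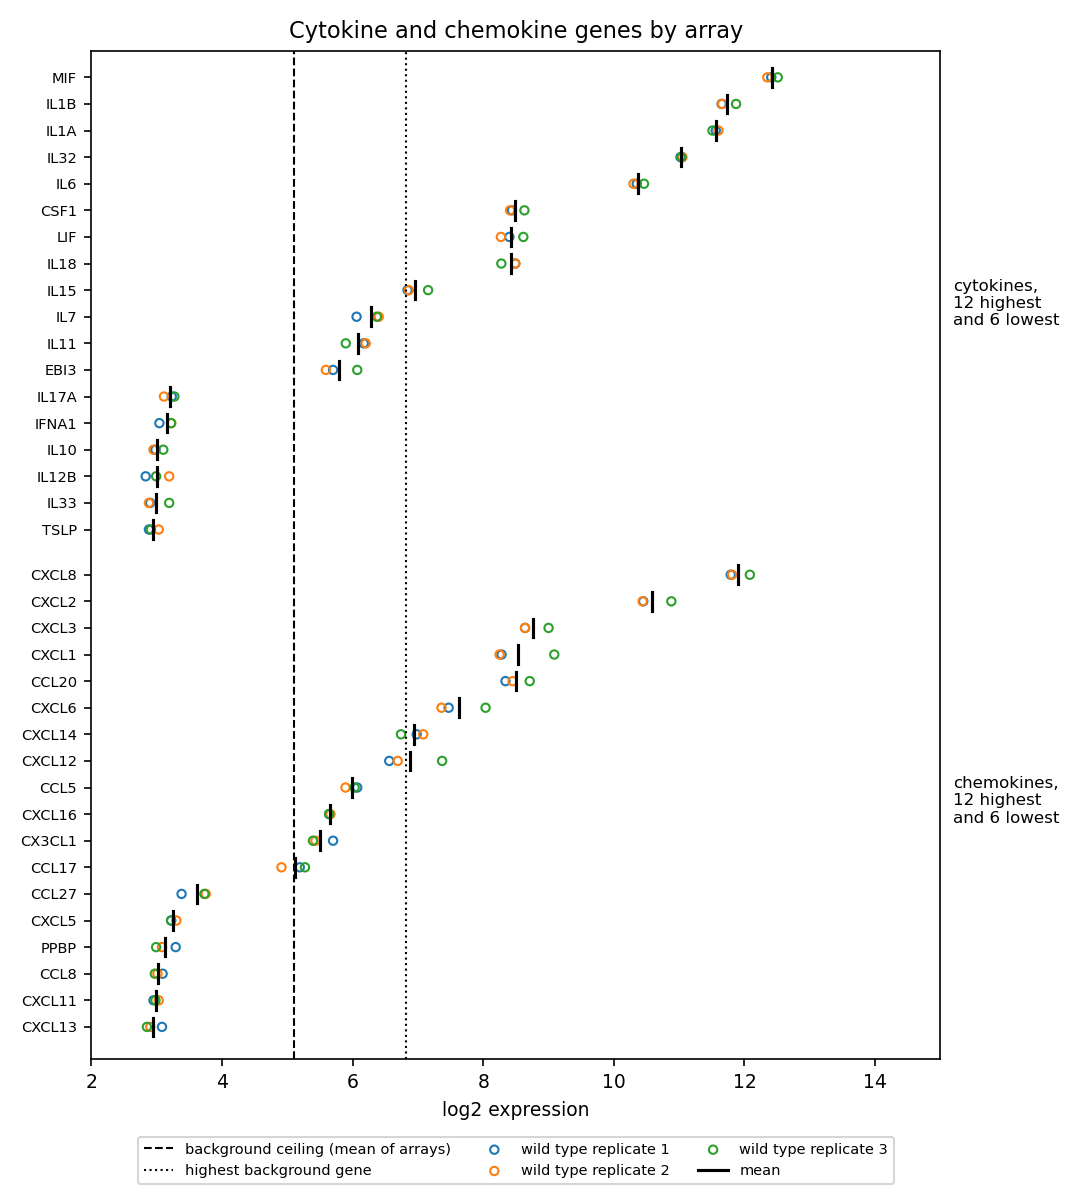
Log2 levels of cytokine and chemokine genes on each of the 3 wild type arrays, with the background ceiling and the highest background gene as lines. IL1A, IL1B and CXCL8 lie above 11 on all 3 arrays, and CXCL1, CXCL2, CXCL3 and CXCL6 have their highest point on replicate 3.

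The start-site windows of chemokine genes are shown on both sides of the ceiling, since close relatives in this family stood on either side of it. They follow the same layout and build as those above. Capitals mark TATAAA, the letters of a TATA box, GGNNTTTCC, a form of the site read by NF-kappa-B, and CCGGAA, a core of ETS factor sites, each searched on both strands. The windows of the genes well above background are chr4:73740449-73740598 (plus strand) for CXCL8, chr4:74099166-74099315 (minus) for CXCL2, chr4:73869273-73869422 (plus) for CXCL1, chr4:74038660-74038809 (minus) for CXCL3, chr4:73836558-73836707 (plus) for CXCL6 and chr2:227813722-227813871 (plus) for CCL20.
CXCL8: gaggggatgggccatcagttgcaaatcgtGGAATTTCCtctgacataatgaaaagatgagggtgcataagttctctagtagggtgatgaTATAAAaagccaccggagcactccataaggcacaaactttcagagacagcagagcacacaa
CXCL2: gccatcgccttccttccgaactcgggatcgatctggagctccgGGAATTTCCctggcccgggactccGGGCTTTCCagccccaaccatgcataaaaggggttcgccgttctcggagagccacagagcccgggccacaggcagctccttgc
CXCL1: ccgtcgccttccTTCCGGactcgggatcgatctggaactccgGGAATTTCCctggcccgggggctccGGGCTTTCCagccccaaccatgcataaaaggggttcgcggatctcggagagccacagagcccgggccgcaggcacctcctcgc
CXCL3: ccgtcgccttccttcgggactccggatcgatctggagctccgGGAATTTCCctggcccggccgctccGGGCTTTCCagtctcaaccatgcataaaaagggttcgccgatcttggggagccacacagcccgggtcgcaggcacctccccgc
CXCL6: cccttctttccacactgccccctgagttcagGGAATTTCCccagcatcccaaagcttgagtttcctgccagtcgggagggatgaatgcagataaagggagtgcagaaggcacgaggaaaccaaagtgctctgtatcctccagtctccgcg
CCL20: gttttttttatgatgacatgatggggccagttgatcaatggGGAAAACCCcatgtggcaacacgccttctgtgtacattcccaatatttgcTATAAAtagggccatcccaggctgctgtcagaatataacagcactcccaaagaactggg
The windows of the genes not above background are chr4:73998648-73998797 (minus strand) for CXCL5, chr4:76036041-76036190 (minus) for CXCL11 and chr4:76023468-76023617 (minus) for CXCL10, which was chosen after its values were seen.
CXCL5: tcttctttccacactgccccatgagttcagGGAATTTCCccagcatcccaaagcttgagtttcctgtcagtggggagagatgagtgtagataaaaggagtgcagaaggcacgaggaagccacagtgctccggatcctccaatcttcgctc
CXCL11: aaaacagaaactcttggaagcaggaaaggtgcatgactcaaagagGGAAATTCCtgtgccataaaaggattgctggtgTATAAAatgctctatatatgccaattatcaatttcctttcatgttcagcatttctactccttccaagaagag
CXCL10: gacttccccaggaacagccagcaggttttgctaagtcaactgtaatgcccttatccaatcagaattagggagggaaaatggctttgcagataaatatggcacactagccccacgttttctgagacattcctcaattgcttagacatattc
A GGNNTTTCC match stood in the windows of the 6 chemokine genes well above background and also in those of CXCL5 and CXCL11. Among all 27195 windows of this length in the table, 3.20% held GGNNTTTCC, 6.60% TATAAA and 12.4% CCGGAA. A match is a run of letters and not a measured site, and these genes were picked with their levels known.

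Among cytokine receptors, IL6ST had the highest level. IL6ST, the signal chain gp130 of the interleukin-6 family, read 11.91, 12.01 and 11.90. The interferon-gamma receptor chains IFNGR2 and IFNGR1 averaged 10.87 and 10.13, the tumour necrosis factor receptor TNFRSF1A 10.81, the death receptor TNFRSF10B 10.07 and the decoy receptor IL13RA2 10.81. The chemokine receptors CXCR2 (3.53), CCR2 (3.42), CCR6 (3.19), CCR7 (3.39) and ACKR3 (3.36) and the cytokine receptor chain CSF2RB (3.10) were not above background. CXCR2 binds CXCL8 and CCR6 binds CCL20, and for both pairs the ligand was well above background while the receptor was not above it. Of 45 measured, 28 (62.2%) were above background and 21 (46.7%) well above, near the shares of all genes.

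Tumour-suppressor genes were mostly above background, and a few were low. The list had 50 genes, of which 5 were not analysed here, and its median percentile was 69.2. Of the 45 measured, 40 (88.9%) were above background and 32 (71.1%) well above, beside 58.8% and 39.5% of all genes. Under the mean of the probe sets, 31 (68.9%) were above background, beside 52.5% of all genes. CDKN2A, which encodes the cell-cycle inhibitors p16 and ARF, read 10.46, 10.49 and 10.53. TNFAIP3, an inhibitor of NF-kappa-B signalling, averaged 10.89, the apoptotic protease CASP8 10.15, the kinase inhibitor CDKN1B 9.84, the Hippo kinase LATS2 9.49 and the TGF-beta receptor TGFBR2 9.12. BRCA1, a repair gene of hereditary breast cancer, read 7.33, 7.45 and 7.15, at percentile 63.9, with both of its probe sets above background.

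Of the 40 tumour suppressors above background, 8 were not well above it, among them RB1 and SMAD4. RB1, the retinoblastoma gene that holds cells before S phase, read 6.07, 6.32 and 6.06, under the highest background gene, and its other probe set averaged 4.02. SMAD4, the common partner of TGF-beta signals, read 5.26, 5.75 and 5.42, with 1 of 5 probe sets above background. The mean of the probe sets put both RB1 and SMAD4 out of the above-background class. The 5 genes not above background by the rule were NF1, a brake on RAS, at 3.04, the phosphatase INPP4B at 3.26, FHIT at 3.96, HIC1 at 4.12 and CDKN2B at 4.14. The NF1 value came from the only probe set annotated to that gene alone, and its call is uncertain. The other 9 probe sets that name NF1 also name the pseudogene NF1P9, and 3 of them were above background, the highest at 8.04, 8.19 and 8.23. Signal of the gene and the pseudogene cannot be told apart there. NF1 here is the neurofibromin gene and is not a nuclear factor I gene.

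Genes that flank these tumour suppressors on the chromosome were read beside them. Around CDKN2A, 2 of the 4 genes on each side, 8 in all, were above background, namely MTAP at 8.72 and TUSC1 at 9.53. CDKN2B, its next neighbour and a related inhibitor, was not above background at 4.14 ± 0.08 (SD, n = 3), and the interferon genes IFNA8, IFNA1 and IFNE read 2.77, 3.16 and 3.14. Around RB1, 4 of 8 flanking genes were above background, with ITM2B at 10.50, SUCLA2 at 10.08, FNDC3A at 9.25 and MED4 at 8.23. LPAR6, which lies within RB1, averaged 3.06, CYSLTR2 3.44 and HTR2A 3.59. Around SMAD4, 4 of 8 were above background, from POLI at 5.66 to MEX3C at 8.51. Around BRCA1, 6 of 8 were above background, among them RPL27 at 13.42 and VAT1 at 9.90. Over the 4 stretches, 16 of 32 flanking genes (50%) were above background, near the 58.8% of all genes. When probe sets ending in _x_at or _s_at were left out, 8 of 26 (30.8%) were, beside 51.1% of all genes. Around SMAD4, the mean of the probe sets ended the calls of MEX3C, MBD2 and POLI.

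Growth-promoting genes were well above background in most cases. MYC, a transcription factor of growth, read 11.16, 11.19 and 10.92, at percentile 96.4. CTNNB1, beta-catenin, averaged 11.28, MCL1, a survival protein, 11.73, the mitotic kinase AURKA 11.05, the AP-1 subunit FOSL1 10.76 and the topoisomerase TOP2A 10.74. Of 36 measured, 33 (91.7%) passed the ceiling and 30 (83.3%) were well above, beside 58.8% and 39.5% of all genes. CCND2 (4.55) and MYCL (4.95) were the 2 not above background on any array.

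All 4 nuclear factor I genes, the family of transcription factors to which the study's plasmid belongs, were well above background in the untransfected cells. NFIC read 8.40, 8.49 and 8.52, with all 4 of its probe sets above background. NFIX averaged 9.41, NFIA 7.92 and NFIB 7.91. Each had an SD under 0.1 over the 3 arrays. Of all genes, 39.5% were well above background.

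Of 60 measured markers of leukocytes, endothelium, adipocytes, fibroblasts and pericytes, melanocytes, hepatocytes and neurons, 17 (28.3%) were above background, 8 mixed and 35 not above. Only 3 were well above background by probe sets of a single gene. They were EGFL7 at 7.47, an endothelial gene, and MBP at 8.14 and NEFL at 8.18, genes of myelin and of neurofilaments. These 3 were chosen for mention after their values were seen. Leukocyte markers had 3 of 13 above background and 0 well above, and fibroblast and pericyte markers 2 of 10 and 0. MCAM, of the latter set, has 4 further probe sets that name it together with a microRNA. Of these, 3 were above background and 1 was well above, at 10.06 on each array. MCAM was also chosen for mention after its values were seen. Neural markers had 4 of 7 (57.1%) and melanocyte markers 3 of 6 (50%), near the 58.8% of all genes, endothelial markers 3 of 10 and hepatocyte markers 1 of 7. Adipocyte markers had 1 of 7 above background beside a PPARG level of 9.13.

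The replicates differed in few genes. An SD over 0.5 was found for 44 genes, which is 0.223% of the 19740. The 10 genes with the largest SD were SLC1A6, DDIT4, S100A8, XYLT1, ZSCAN31, NDRG1, NRG1, TENT5B, COXFA4L3 and GDF15. DDIT4, an inhibitor of mTOR that responds to stress, read 7.35, 7.36 and 8.59, and NDRG1, a gene that responds to low oxygen, read 8.86, 8.91 and 10.01. NRG1, a ligand of the ERBB family, read 7.35, 7.97 and 6.72. Replicate 3 was the farthest from the median in 9 of these 10 genes, higher in 7 and lower in 2. Among the 100 genes with the largest SD it was the farthest in 68, higher in 49 and lower in 19.

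Among the genes well above background, 35.4% were highest on replicate 3. Within the lists, the same was found for 13 of 15 protease and inhibitor genes, 15 of 19 matrix glycoprotein genes and 11 of 16 collagens and laminins. Of the 30 oncogenes and cell cycle genes, 6 were highest there and 15 on replicate 2. The deposited values of replicate 3 also carried more decimals than those of the other arrays at 6354 probe sets, and whether that array was made or handled apart was not tested.

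Genes above background differed in the base composition of their start-site windows. Windows of 300 bases, 250 before and 50 from the RefSeq start, were found for 13441 of 15915 protein-coding genes (84.5%), a restriction chosen after the data were seen. Observed over expected CpG had a median of 0.847 for genes above background and 0.430 for genes not above. The share above background was 24.3% at ratios under 0.2 and 87.1% at ratios of 1 or more, against 67.9% over all these genes. TATAAA was present in 5.37% of the windows of genes above background and 15.5% of those not above, and CCGGAA in 30.6% and 10.5%. GGNNTTTCC, in 6.62% and 6.35%, was near the 6.27% of all 27195 windows, of which 3254 held TATAAA and 17.6% held CCGGAA. Windows were present for 86.4% of genes above background and 80.9% of genes not above.

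**Figure D4:**
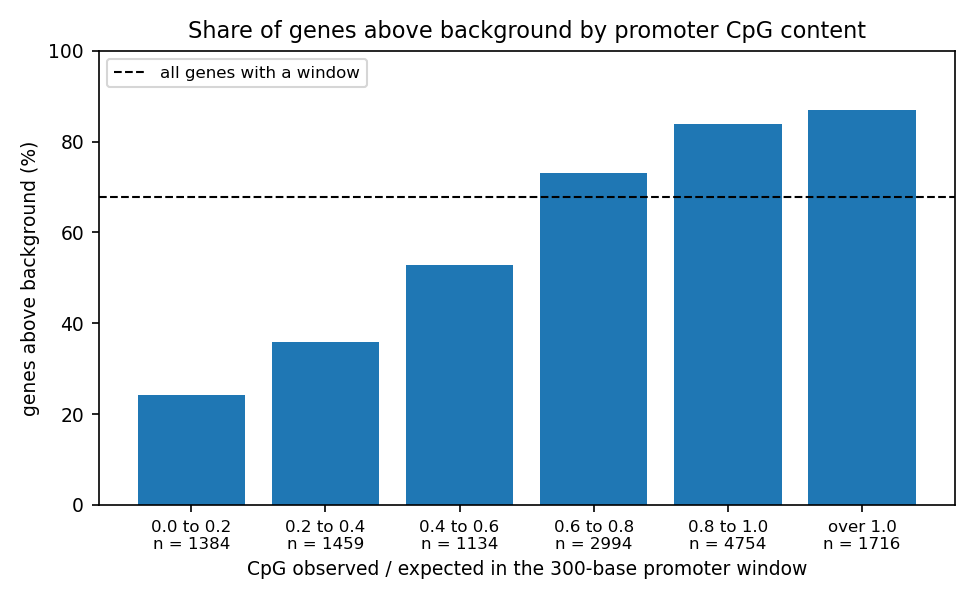
Share of protein-coding genes above background on all 3 wild type arrays, in bins of the observed over expected CpG ratio of the 300 bases around the start site. The share goes up in each bin, from 24.3% to 87.1%, around the overall 67.9%.

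Some calls rested on probe sets of wide match. Probe sets ending in _x_at or _s_at may match more than 1 transcript, and 53 of the 258 genes named by rule had no other probe set. Without them, 23 named genes were no longer above background: CXCL2, AURKA, CASP8, ESR1, FN1, GDF15, IFNGR1, IGF2R, IL1A, ITGB4, MBD2, MEX3C, NBR1, NR3C1, NRG1, P4HA1, RPL7, RPS14, S100A8, SMAD4, TGFB1, TUBA1B and XYLT1. The 53 genes with no other probe set include VIM, KRT18, KRT8, ERBB2, EPCAM, MYC, CXCL8 and CD24. Under the mean of all probe sets, 11 named genes lost the call, namely MEX3C, NRG1, RB1, S100A8, SLC1A6, ESR1, GDF15, MBD2, POLI, SMAD4 and XYLT1. Leaving out any array ended the call of none of the 159 named genes above background. The rule then asks for fewer passes, so a call could hardly be lost and this does not measure stability.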

How the data were processed

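The log2 values were deposited by the authors in 1 table for Affymetrix arrays and came from RMA, per the submitters' processing notes. RMA corrects background, brings arrays to a common distribution and summarizes probes, so dim signals are compressed. No RMA version is stated in these sources. Only the 3 wild type columns were used. Of 54675 probe sets, 62 controls were left out, 41091 named 1 gene by the platform annotation, 1801 several and 11721 none. Symbols came from RefSeq GRCh38.p14 for 41037 of them. Each gene took its brightest single-gene probe set by mean, and genes of the Y chromosome and X inactivation were left out. The text names the 25 highest genes, 20 set genes where measured, up to 6 members above and 6 not above background per list, the 10 genes of largest SD and the genes flanking 4 tumour suppressors. List members that lacked one were not analysed here. The members, gene lists and background genes were chosen with earlier results of these data known. Calls are descriptions with no test, made with Python 3.11.15, numpy 2.4.6 and pandas 2.3.3. Alternatives covered probe sets, arrays, normalization and ceiling.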

Additional observations from a re-analysis of the deposited data

How the results depend on the processing

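The count of genes above background ran from 7803 with the highest background gene as ceiling to 12414 with the 90th percentile, and from 11681 to 11798 when an array was left out. With an array left out the rule asks for fewer passes, so that count could hardly fall. All alternatives were planned except the highest background gene. No list count moved beyond 1.5 times its value under quantile normalization or median centring. When probe sets ending in _x_at or _s_at were left out, fewer genes were measured, and 8718 of 17066 (51.1%) were above background. Counts were then 9 of 17 for steroid receptors, 13 of 21 for luminal, 12 of 27 for epithelial and 14 of 23 for collagens. They were 17 of 27 for matrix glycoproteins, 14 of 27 for receptor kinases, 10 of 22 for growth factors and 10 of 34 for interleukins. Tumour suppressors counted 24 of 35, housekeeping genes 8 of 10, melanocyte markers 1 of 5, hepatocyte markers 0 of 5 and flanking genes 8 of 26. The mean of the probe sets gave 13 of 30 luminal genes (43.3%), beside 52.5% of all genes. Of the 25 highest genes, 15 were shared under that mean and 5 without the probe sets of wide match. The highest background gene gave 8 steroid receptors, 7 luminal, 7 basal, 6 epithelial, 15 protease, 13 receptor kinase, 12 growth factor, 8 interleukin and 6 chemokine genes, 1 endothelial, 2 neural and 0 leukocyte, adipocyte, fibroblast, melanocyte and hepatocyte markers. Leukocyte markers counted 5 and hepatocyte markers 3 with the 90th percentile or the array median as ceiling, and 5 and 2 with the mean of the arrays. At the 99th percentile endothelial markers counted 1, melanocyte 1 and hepatocyte 0. Leaving out an array gave 3 to 5 for leukocyte, 1 to 2 for adipocyte and 1 to 2 for hepatocyte markers, and a median CpG ratio of 0.436 to 0.438 for genes not above background. That ratio, for genes above and not above, was 0.851 and 0.508 with the mean of the probe sets, 0.854 and 0.469 at the 99th percentile, 0.842 and 0.418 at the 90th, 0.842 and 0.416 with the array median, 0.845 and 0.446 with the mean of the arrays and 0.867 and 0.605 with the highest background gene. For genes not above background it was 0.551 without probe sets of wide match. The cause of these shifts was not tested. Signals near the ceiling cannot be told from background on 3 arrays. No paired analysis was possible because no groups were compared.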

Other observations

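Probe sets with no gene in the annotation also carried signal. Of 11721 such probe sets, 2049 (17.5%) passed the ceiling on all 3 arrays and 743 (6.34%) passed the highest background gene. They are unnamed here and entered no list.

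Of the 123 background genes, 4 were above the ceiling on all 3 arrays and 7 on some. The values of replicate 3 with more than 2 decimals differed from the mean of replicates 1 and 2 with an SD of 0.191, and its other values with an SD of 0.177.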
